A study of Mus musculus with 24 samples.

Results

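The response of mouse naive CD4 T cells to 8 h of stimulation was compared between wild-type (WT) and Raptor-deficient cells, gene by gene, on the 16 of the study's 24 arrays that hold unstimulated and 8 h cells. Each of the 4 groups had 4 samples. WT cells came from C57BL/6 mice, and the Raptor-deficient cells from CD4(cre)Raptor(fl/fl) mice, whose labels give no strain. In these mice the Cre recombinase is driven by the Cd4 promoter, which is active in developing T cells of the thymus, so that the floxed Raptor gene is lost in CD4 and CD8 T cells well before they are sorted. The WT label names neither Cre nor a floxed allele, so Cre, the deletion and any difference of strain cannot be told apart here. All samples were cells sorted as CD4+CD62LhiCD44loCD25-, taken from spleen and lymph nodes, and stimulation meant culture for 8 h with plate-bound antibodies against CD3 and CD28. Age and sex are not given, and the labels do not say whether replicates were separate animals or whether animals were pooled, so p-values reflect only how far these samples scatter, which may in part be technical. The remaining 8 arrays, cells stimulated in the same way for 24 h, did not enter the interaction test and are described at the end. They did enter the choice of 1 probe set per gene.

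Raptor is the scaffold subunit that defines mTORC1, the mTOR kinase complex that senses growth factors and amino acids. In T cells, the antigen receptor and CD28 switch mTORC1 on, and the complex promotes protein synthesis, glycolysis, and the synthesis of sterols and fatty acids through the SREBP transcription factors as the cell leaves quiescence. A naive cell that is stimulated grows for many hours before it first divides, so at 8 h the transcripts seen belong to this growth phase.

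The arrays (Affymetrix HT MG-430 PM) gave log2 intensities for 17097 genes, 1 probe set per gene, and every level below is such a log2 value. The interaction is the Raptor-deficient response (8 h minus unstimulated) minus the WT response, which equals the genotype difference at 8 h minus the genotype difference in unstimulated cells. A negative interaction is called lower and a positive one higher. Genes were tested with limma, and a gene is called at a Benjamini-Hochberg adjusted p under 0.05 over all 17097 genes. One array scattered most, that of replicate 1 of the unstimulated Raptor-deficient cells, where 377 genes lay at least 2-fold from the mean of the other replicates with a residual SD of 0.280. The next were replicates 2 and 3 of those cells at 0.222 and 0.206, and the other 13 arrays lay between 0.126 and 0.172. Many resting levels below therefore rest on the most scattered group of the 4. Levels under 5.515, the overall median, are called near background below. This cut is a convention, since no detection call was used. Of the 112 genes picked by the naming rule, 24 had an unstimulated mean below 5.515 in at least 1 genotype. For these the resting differences and folds may describe array signal near its floor.

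Rptor itself, the gene for Raptor, read 7.04, 7.49, 7.19 and 7.39 in unstimulated WT replicates 1 to 4 and 5.92, 7.37, 6.55 and 6.79 in unstimulated Raptor-deficient cells. At 8 h it read 7.49, 7.51, 7.57 and 7.46 in WT and 6.41, 6.27, 6.50 and 6.79 in Raptor-deficient cells. The groups overlapped before stimulation, through Raptor-deficient replicate 2, and did not overlap at 8 h. The difference was -0.62 in unstimulated cells (adjusted p = 0.189), -1.01 at 8 h (adjusted p = 0.00264), and its interaction was -0.39 ± 0.28 (SE, adjusted p = 0.533). A second, dimmer Rptor probe set differed by -0.58 in unstimulated cells and -0.66 at 8 h, with no overlap of the genotypes at either time. Both differences were called in a limma fit of all 28898 probe sets (adjusted p = 0.00534 and 0.000285). The files do not place these probes against the deleted exon, so the values do not measure how complete the deletion was.

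All 10 measured markers of alpha beta CD4 T cells reached 5.515, the overall median log2 value, in at least 1 group. One of them, the T cell surface marker gene Thy1, had a called interaction (-0.69, adjusted p = 0.0275). Among 89 measured markers in 10 lists for other cells 1 was called, the NK cell receptor gene Klrd1, against 3.21% of all genes. The summed linear intensity of 14 B cell markers ran from 445.1 to 581.3 in unstimulated WT, 554.8 to 812.7 in unstimulated Raptor-deficient, 492.0 to 560.5 in WT 8 h and 604.4 to 890.5 in Raptor-deficient 8 h samples. For 18 myeloid markers the corresponding ranges were 436.1 to 473.3, 479.4 to 557.9, 417.7 to 438.5 and 520.4 to 569.6. Both sums were thus higher in Raptor-deficient samples at 8 h with no overlap. So were those of 6 platelet markers (222.1 to 270.3 in WT, 296.1 to 337.9 in Raptor-deficient samples) and 7 dendritic cell markers (259.4 to 280.8 and 287.5 to 327.0). The myeloid sums did not overlap in unstimulated samples either. A group mean of 5.515 was reached by 5 of 14 B cell, 4 of 18 myeloid, 3 of 6 platelet and 3 of 7 dendritic cell markers. Many members of these sums were thus near background. The sum of the 10 CD4 T cell markers was lower at 8 h with no overlap (10990 to 12090 in WT, 9096 to 9842 in Raptor-deficient samples), as was that of 2 CD8 T cell markers (140.9 to 164.5 and 98.76 to 129.8). The part of these shifts in the results was not tested. On arrays of whole samples, fewer cells of a type and less RNA per cell cannot be told apart.

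The 8 h response differed between genotypes in 548 genes, 3.21% of those tested, of which 147 (0.86%) were higher and 401 (2.35%) lower. A fold of at least 2 was seen in 75 of them. The genotype difference itself was called for 163 genes (0.953%) in unstimulated cells, 60 higher (0.351%) and 103 lower (0.602%) in Raptor-deficient cells. At 8 h it was called for 1691 (9.89%), 510 higher (2.98%) and 1181 lower (6.91%). Stimulation itself changed 6349 genes (37.1%) in WT, of which 3060 (17.9%) rose and 3289 (19.2%) fell, and 5201 (30.4%) in Raptor-deficient cells, of which 2548 (14.9%) rose and 2653 (15.5%) fell. Each of the 548 genes was then sorted by where its difference lay. In 444 genes the genotypes differed at 8 h and were not called before stimulation, and these are described as differing after stimulation. In 31 genes they differed in unstimulated cells and not at 8 h, so that the interaction is assigned to the resting level. In 4 genes both differences were called with opposite signs, in 2 both had the same sign, and in 67 neither was called on its own. An uncalled difference is not an absent one. The nearest misses were Pitrm1 among the resting genes (8 h adjusted p = 0.0586) and Nudt19 among those differing after stimulation (unstimulated adjusted p = 0.0542), while Tom1 (0.0495, unstimulated) and Zfp445 (0.0493, 8 h) lay just inside.

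Single arrays moved these counts. The total was 291 without WT 8 h replicate 3, 325 and 363 when replicate 2 or 4 of that group was dropped, 363 and 345 when Raptor-deficient 8 h replicate 2 or 4 was, and 1046 without unstimulated Raptor-deficient replicate 3. Without replicate 1 of the unstimulated Raptor-deficient cells, the most scattered array, it was 731, and 622 genes differed after stimulation. In all 16 fits that left out 1 array, 263 of the 548 genes kept their call, made up of 234 of the 444 that differed after stimulation, 14 of the 31 resting genes, the 4 opposed genes, 1 of the 2 with the same sign and 10 of the 67. The sign of a called gene changed in none of those fits. The genes that differed after stimulation numbered 275, 248 and 292 when WT 8 h replicate 2, 3 or 4 was dropped, 285 when Raptor-deficient 8 h replicate 4 was, and 693 when unstimulated Raptor-deficient replicate 3 was. The 163 genes differing in unstimulated cells became 93, 102 and 88 when WT replicate 1, 2 or 3 was dropped and 299 when Raptor-deficient replicate 3 was.

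**Figure D1:**
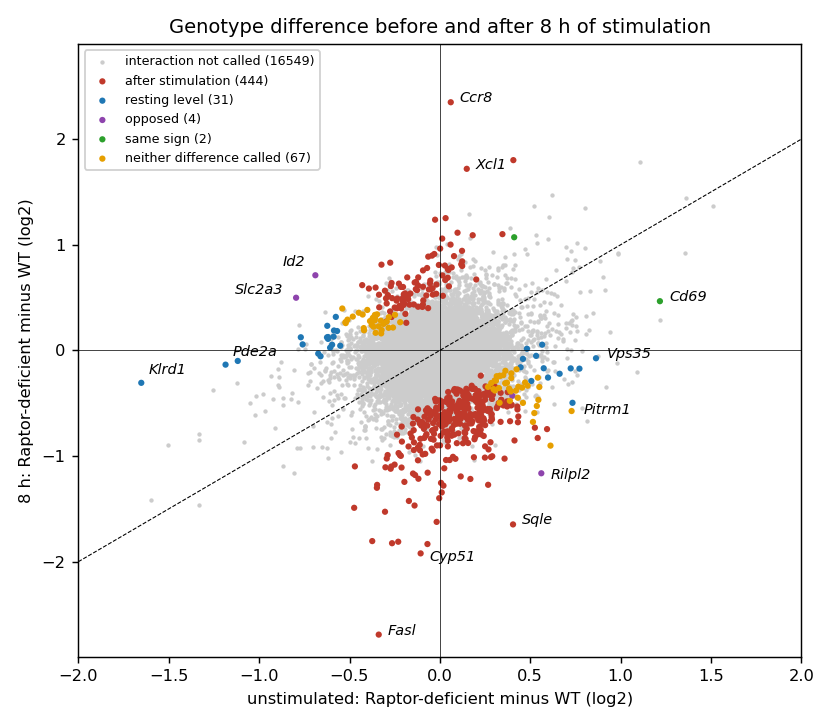
Genotype difference (Raptor-deficient minus WT, log2) in unstimulated cells on the x axis and after 8 h on the y axis, 1 point per gene, coloured by the class of its interaction; the dashed line marks equal differences at both times, and 1 of the 17097 genes lies outside the axes. The 444 red points spread along the y axis and the 31 blue points along the x axis.

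Most genes that differed after stimulation were raised less in Raptor-deficient cells. The 348 lower ones had a median WT response of 1.27 and a median Raptor-deficient response of 0.47, with a median genotype difference of 0.10 before stimulation and -0.63 at 8 h. The 96 higher ones fell by a median of 0.70 in WT and had a median response of 0.013 in Raptor-deficient cells. These medians describe genes chosen by the same values. Of the 348, 252 had a slightly positive difference before stimulation, a direction that choosing on the change favours. In 64 of the 444 genes the uncalled unstimulated difference was more than 0.5 times the size of the one at 8 h, so for these the split between resting level and response is less sharp.

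Sterol synthesis was the list with the lowest median interaction among the 26 pathway lists. Of its 20 measured genes 14 were called lower and 0 higher, against 2.35% lower among all genes, all 20 interactions lay below 0, and the median was -1.12 against 0.023 over all genes. Cells make sterols from acetyl-CoA through mevalonate and squalene, and the SREBP-2 factor, encoded by Srebf2, raises the genes of this route together when sterol is short. Proximal promoters of several such genes hold E-box (CACGTG) and CCAAT motifs, the second of which binds NF-Y, a partner of SREBP. Because these members moved together, the 250 bases before the annotated start (RefSeq, GRCm38.p6) are shown for 4 of them, read along the gene's strand, with CACGTG and CCAAT, or its complement ATTGG, in capitals. Apart from Cyp51, these are the called members that hold CACGTG and have a single annotated start, so they were chosen for that motif. Cyp51 lies at chr5:4104698-4104947 (minus strand), Hsd17b7 at chr1:169969206-169969455 (minus strand), Insig1 at chr5:28071162-28071411 (plus strand) and Sc5d at chr9:42264301-42264550 (minus strand).
Cyp51: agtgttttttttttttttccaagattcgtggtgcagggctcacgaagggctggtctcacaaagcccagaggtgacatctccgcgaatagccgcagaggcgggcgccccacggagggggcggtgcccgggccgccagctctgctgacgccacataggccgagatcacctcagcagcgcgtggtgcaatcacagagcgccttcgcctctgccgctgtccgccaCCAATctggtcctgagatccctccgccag
Hsd17b7: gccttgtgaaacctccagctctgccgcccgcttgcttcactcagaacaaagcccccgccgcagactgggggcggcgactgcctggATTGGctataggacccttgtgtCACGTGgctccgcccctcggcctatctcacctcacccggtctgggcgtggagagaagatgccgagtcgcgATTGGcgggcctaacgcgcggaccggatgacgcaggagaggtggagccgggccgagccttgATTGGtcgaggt
Insig1: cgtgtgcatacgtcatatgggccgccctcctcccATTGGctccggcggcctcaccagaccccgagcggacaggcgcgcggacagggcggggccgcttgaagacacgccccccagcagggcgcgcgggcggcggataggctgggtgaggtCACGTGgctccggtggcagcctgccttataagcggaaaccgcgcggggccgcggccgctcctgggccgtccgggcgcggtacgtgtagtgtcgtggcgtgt
Sc5d: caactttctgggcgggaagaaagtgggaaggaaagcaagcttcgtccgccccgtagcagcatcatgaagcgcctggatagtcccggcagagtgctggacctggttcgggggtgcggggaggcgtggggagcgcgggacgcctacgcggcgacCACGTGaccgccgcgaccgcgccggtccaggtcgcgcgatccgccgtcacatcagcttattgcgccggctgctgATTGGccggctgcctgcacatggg
In Hsd17b7, Insig1 and Sc5d the E-box begins 143, 101 and 98 bases before the start. The table holds 12 promoters for 10 of the 14 called genes, and CCAAT in either orientation was found in 10 of them (83.3%), against 33.8% of all 32851 promoters of the same 250 bases and 34.9% of the 16598 promoters of tested genes. CACGTG was found in 4 (33.3%, against 6.02% and 7.47%), and the sterol element form TCACNCCAC in 0 (against 1.05% and 1.07%). Dhcr7 has 3 of the 12 promoters. Over all measured sterol genes, called or not, 15 of 19 promoters (78.9%) held CCAAT and 5 (26.3%) held CACGTG. The motifs were thus not particular to the called members. CCAAT was added to the search after the data were seen. A match is a description of these letters and not of binding.

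Cyp51, the lanosterol demethylase gene, read 6.91, 6.95, 6.77 and 6.65 in unstimulated WT and 6.40, 6.92, 6.68 and 6.85 in unstimulated Raptor-deficient replicates. At 8 h WT read 9.62, 9.62, 9.65 and 9.54, and Raptor-deficient cells 7.69, 7.74, 7.95 and 7.37. The groups were intermixed before stimulation and far apart after it, a rise of 6.92-fold in WT against 1.97-fold. The interaction was -1.81 ± 0.17 (SE, adjusted p = 1.73e-05). The other 2 probe sets of the gene gave -1.86 and -0.75.

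Sqle, the squalene epoxidase gene and the next step after squalene, read 4.23, 3.74, 3.70 and 4.11 in unstimulated WT and 4.35, 4.88, 4.27 and 3.90 in unstimulated Raptor-deficient cells. It reached 7.53, 7.72, 7.74 and 7.45 in WT and 6.15, 5.99, 5.86 and 5.85 in Raptor-deficient cells. The unstimulated values overlap near background and the 8 h values do not, with an interaction of -2.05 ± 0.23 (SE, adjusted p = 0.000108). Idi1, an isomerase gene of the mevalonate route, rose 19.0-fold in WT, to between 10.85 and 11.11, and 6.46-fold in Raptor-deficient cells, to between 9.06 and 9.32 (interaction -1.56 ± 0.25 SE, adjusted p = 0.00226). Msmo1, a sterol methyl oxidase gene, rose 3.97-fold in WT and 1.33-fold in Raptor-deficient cells (interaction -1.58, adjusted p = 0.00197). Its other probe set gave -0.58, which was not called. For these genes the unstimulated groups overlapped and the 8 h groups did not.

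The other called members ran from Lss, the lanosterol synthase gene, at -1.39 to Stard4, a sterol carrier gene, at -0.90, and included the reductase gene Dhcr7 (-0.95), the synthase genes Fdps (-1.22) and Fdft1 (-1.14), and Insig1 (-1.26), which encodes a retention factor for SREBP. In Sc5d, a desaturase gene, the WT mean went from 6.57 to 7.43 while the Raptor-deficient mean went from 6.43 to 5.96, so the responses pointed opposite ways. The other, dimmer Sc5d probe sets gave -0.050 and -0.46, neither called. All 14 were of the class that differed after stimulation. Srebf2 read between 9.65 and 9.84 in WT and between 9.12 and 9.28 in Raptor-deficient cells at 8 h, a difference of -0.54 (adjusted p = 0.0051), but its interaction of -0.35 was not called (adjusted p = 0.284). The number of called members was 14 or 15 whichever single array was left out. In fatty acid synthesis, 2 of 14 members were called, both lower, against 2.35% lower among all genes. They were the ligase gene Acsl3 (-1.07, adjusted p = 0.00363) and the fatty acid synthase gene Fasn (-0.81, adjusted p = 0.0108).

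**Figure D2:**
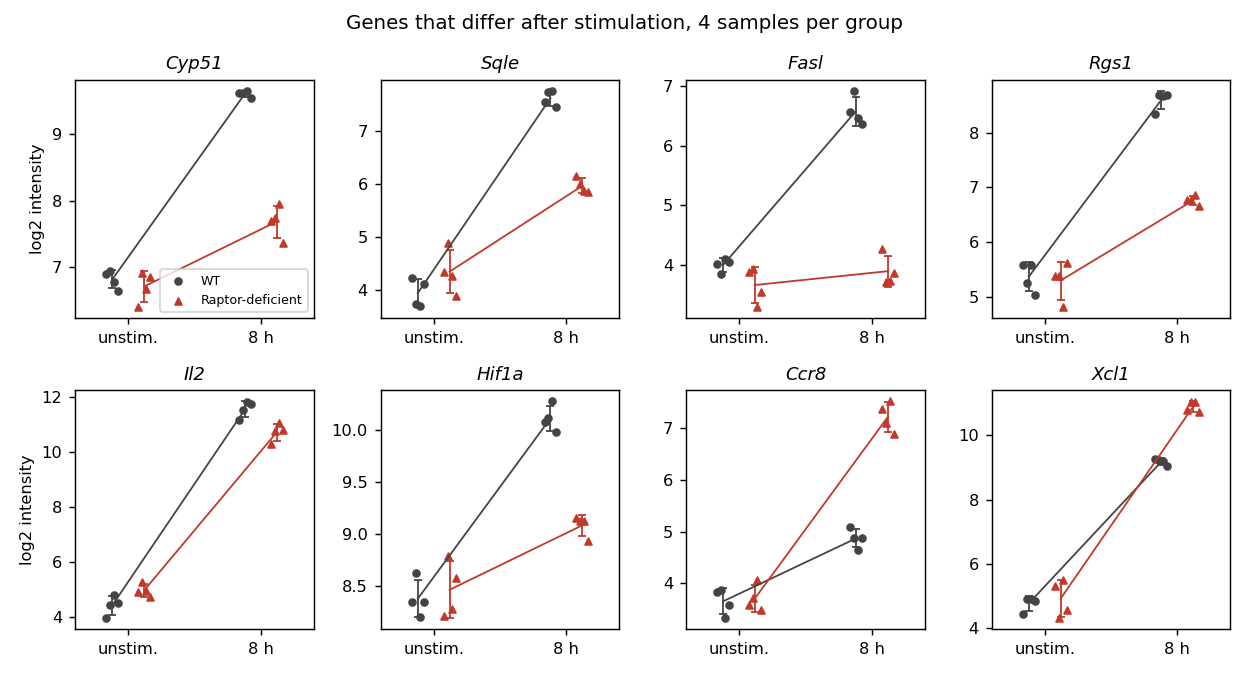
Log2 intensity of 8 genes that differed after stimulation, in unstimulated and 8 h cells; each point is 1 sample (4 per group), lines join group means and bars are SDs. The genotypes lie close together before stimulation, while at 8 h Raptor-deficient samples are lower in Cyp51, Sqle, Fasl, Rgs1, Il2 and Hif1a and higher in Ccr8 and Xcl1.

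Among glycolysis genes 8 of 18 members were lower and 1 higher, against 2.35% and 0.86% of all genes, with a median interaction of -0.48. The same 2 shares are the background for each list below. Slc16a1, which encodes the lactate transporter MCT1, read 9.25, 9.36, 9.42 and 9.28 in WT at 8 h and 8.61, 8.33, 8.67 and 8.41 in Raptor-deficient cells, after unstimulated ranges of 6.27 to 6.49 and 6.34 to 6.59. The groups coincided at rest and separated at 8 h (interaction -0.86 ± 0.13 SE, adjusted p = 0.00156). Other called enzyme genes included Tpi1 at -1.05, Pkm at -0.70, Ldha at -0.65, Gapdh at -0.65, Pgk1 at -0.61 and Aldoa at -0.49. Hk2, the gene of the first enzyme, and the glucose transporter gene Slc2a1 each had an interaction of -0.48 that did not pass (adjusted p = 0.293 and 0.269). The higher member was another glucose transporter gene, Slc2a3, described below among the opposed genes.

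In mitochondria the same direction was seen over many small differences. Of 62 measured genes of oxidative phosphorylation, 60 had an interaction below 0 and 18 were called lower, 0 higher (2.35% and 0.86% of all genes), with a median of -0.44. They included subunits of complex I (Ndufa12, -0.76, adjusted p = 0.00408), complex III (Cyc1, -0.53, adjusted p = 0.011) and the ATP synthase (Atp5g3, -0.71, adjusted p = 0.00989). In WT cells 55 of the 62 rose and 0 fell, and in Raptor-deficient cells 32 rose and 2 fell. The count of 18 depended on single arrays. It was 7 when WT 8 h replicate 3 or Raptor-deficient 8 h replicate 1 was dropped, 8 for WT 8 h replicate 2 or 4, 9 for WT unstimulated replicate 1 or 4 or Raptor-deficient 8 h replicate 2 or 4, 10 for WT unstimulated replicate 3 and 11 for Raptor-deficient 8 h replicate 3. The tricarboxylic acid cycle had 4 of 20 members lower and 0 higher (Idh3a -0.85, Sdhb -0.69, Sucla2 -0.61, Suclg1 -0.58), a count of 2 without WT 8 h replicate 3 or Raptor-deficient 8 h replicate 4 and 7 without unstimulated Raptor-deficient replicate 3. Mitochondrial translation had 5 of 31 lower and 0 higher, all genes of the Mrpl series of mitochondrial ribosomal proteins (Mrpl1, -0.80; Mrpl12, -0.78), and 10 and 9 without unstimulated Raptor-deficient replicates 1 and 3.

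Genes of protein turnover and folding gave 10 of 33 proteasome members lower and 0 higher (2.35% and 0.86% of all genes), with a median interaction of -0.53. Psmd12, a lid subunit gene, reached a difference of -0.63 at 8 h after 0.29 before (interaction -0.92 ± 0.17 SE, adjusted p = 0.0052). All 33 proteasome genes rose in WT and 27 rose in Raptor-deficient cells, so the response was smaller and not lost. This count was 5 when WT unstimulated replicate 4, WT 8 h replicate 2 or 4, or Raptor-deficient 8 h replicate 1 or 4 was dropped. It was 6 for WT unstimulated replicate 3, WT 8 h replicate 3 or Raptor-deficient 8 h replicate 2, and 16 for unstimulated Raptor-deficient replicate 3. The unfolded protein response had 6 of 25 members lower and 0 higher. Sdf2l1, a chaperone cofactor gene of the endoplasmic reticulum, read 8.13, 8.07, 8.30 and 7.97 in WT at 8 h and 6.92, 6.76, 7.04 and 6.63 in Raptor-deficient cells, from unstimulated means of 5.83 and 5.85. Its interaction was -1.30 ± 0.18 (SE, adjusted p = 0.000945). Xbp1, which encodes a transcription factor of that response, went from 7.35 to 8.69 in WT and from 7.51 to 7.82 in Raptor-deficient cells (interaction -1.03, adjusted p = 0.00201), and Creld2, an isomerase gene of the same compartment, had -1.26 (adjusted p = 0.00105).

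Ribosome biogenesis genes rose in both genotypes. In WT 37 of 38 members rose, by a median of 2.13, and in Raptor-deficient cells 38 of 38 rose, by a median of 1.57. The interaction was called lower in 6 and higher in 0 (2.35% and 0.86% of all genes), among them Ebna1bp2 (-0.85) and Polr1b (-0.73), a count that hung on single arrays. It was 1 when WT 8 h replicate 2 or 3 or Raptor-deficient 8 h replicate 4 was dropped, and 2 for WT unstimulated replicate 4, WT 8 h replicate 4 or Raptor-deficient 8 h replicate 1. It was 3 for WT unstimulated replicate 1 or 3, Raptor-deficient unstimulated replicate 2 or Raptor-deficient 8 h replicate 2, and 14 for unstimulated Raptor-deficient replicate 3. Serine, one-carbon and nucleotide synthesis had 4 of 24 lower and 0 higher (7 without unstimulated Raptor-deficient replicate 3), with Gmps, a purine enzyme gene, at -0.92 and Shmt2, the mitochondrial serine hydroxymethyltransferase gene, at -0.66. Among further lists, 0 of 38 cytosolic ribosomal protein genes and 0 of 33 interferon-stimulated genes had a called interaction in limma's test, with medians of 0.040 and 0.095. At an unadjusted p under 0.05, 1 of the 38 and 3 of the 33 passed, against 16.9% of all genes.

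**Figure D3:**
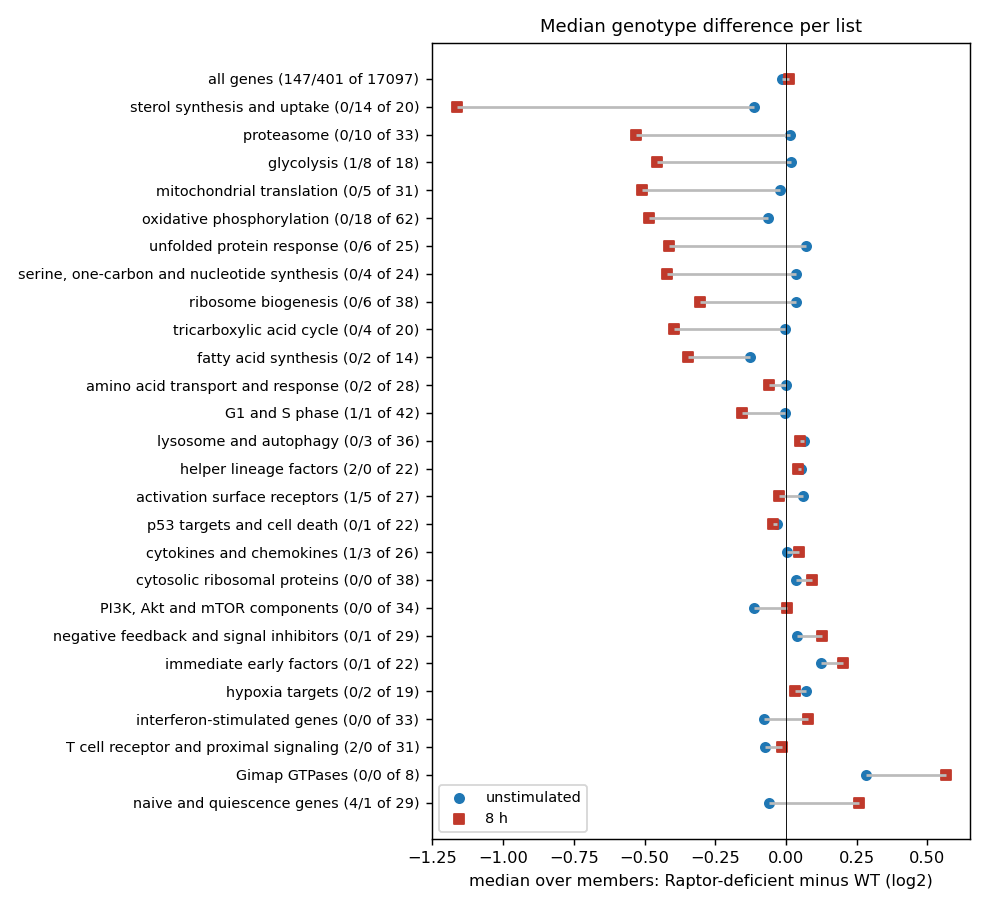
Median genotype difference (Raptor-deficient minus WT, log2) over the members of each of 26 lists and over all genes, in unstimulated cells (blue circles) and at 8 h (red squares); labels give the number of members with a called higher and lower interaction and the number measured. Unstimulated medians lie between -0.13 and 0.28, the highest that of the Gimap genes, while the 8 h median of sterol synthesis and uptake lies at -1.17.

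Effector and signaling genes of activation differed singly and in both directions. Fasl, which encodes the death ligand FasL, read 4.01, 3.83, 4.09 and 4.05 in unstimulated WT and 6.56, 6.92, 6.46 and 6.37 in WT at 8 h. In Raptor-deficient cells it read 3.87, 3.93, 3.28 and 3.55 before and 4.26, 3.71, 3.72 and 3.87 after stimulation. Every Raptor-deficient 8 h sample stayed near background, below every WT 8 h sample, and the interaction was -2.35 ± 0.21 (SE, adjusted p = 1.73e-05; the second probe set gave -2.10). Rgs1, which encodes an inhibitor of G protein signaling, reached 8.34 to 8.69 in WT and 6.66 to 6.86 in Raptor-deficient cells from overlapping unstimulated values (interaction -1.76, adjusted p = 0.000203). Chst2, a sulfotransferase gene, rose 28.7-fold in WT and 9.43-fold in Raptor-deficient cells (interaction -1.61, adjusted p = 0.00105), although its second probe set gave -0.077.

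Il2, the T cell growth factor gene, rose from 3.97, 4.43, 4.82 and 4.51 to 11.16, 11.52, 11.81 and 11.74 in WT. In Raptor-deficient cells it rose from 4.90, 5.29, 4.94 and 4.75 to 10.31, 10.75, 11.04 and 10.81. The 8 h groups did not overlap, with a difference of -0.83 (adjusted p = 0.00561) and an interaction of -1.37 ± 0.26 (SE, adjusted p = 0.00603). All unstimulated Il2 values lay near background, so the size of the interaction is less certain than the difference at 8 h. Hif1a, the gene of the oxygen-sensing factor that also drives glycolysis genes, read 10.08, 10.11, 10.28 and 9.98 in WT and 9.16, 9.13, 9.12 and 8.94 in Raptor-deficient cells at 8 h, from overlapping unstimulated values between 8.21 and 8.80. Its rise was 3.32-fold in WT and 1.53-fold in Raptor-deficient cells (interaction -1.11 ± 0.17 SE, adjusted p = 0.00165). Pdcd1, the gene of the inhibitory receptor PD-1, rose by 3.80 in WT and by 2.80 in Raptor-deficient cells (interaction -1.01, adjusted p = 0.005).

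Further down, Acot7, an acyl-CoA thioesterase gene, had an interaction of -1.40 (adjusted p = 0.00771), the prostaglandin receptor gene Ptger2 one of -1.54 (adjusted p = 0.0157) and the thrombin receptor gene F2r one of -1.43 (adjusted p = 0.0194). F2r fell just short when replicate 1 of all 4 groups was left out, which was tried after the data were seen (adjusted p = 0.0504). For several central regulators the interaction was not called. Myc rose by 4.25 in WT and 4.12 in Raptor-deficient cells (interaction -0.13, adjusted p = 0.746), Irf4 by 5.69 and 5.32 (-0.37, adjusted p = 0.562), and the IL-2 receptor gene Il2ra by 6.25 and 5.98 (-0.27, adjusted p = 0.787). Of 22 immediate early genes 1 was called, a share near the 3.21% of all genes. This was Fosl1, an AP-1 gene (-1.02, adjusted p = 0.0282), which lost its call in 8 of the 16 fits without 1 array. Tbx21, the T-bet gene, had a large but variable interaction of -1.33 (adjusted p = 0.0765), and Gata3 one of 0.72 (adjusted p = 0.0996).

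Among the genes higher in Raptor-deficient cells after stimulation, chemokine signaling genes had the largest values. Ccr8, a chemokine receptor gene, read 3.83, 3.87, 3.33 and 3.58 in unstimulated WT and 3.57, 3.71, 4.07 and 3.49 in unstimulated Raptor-deficient cells. At 8 h it read 5.08, 4.88, 4.65 and 4.87 in WT and 7.37, 7.10, 7.52 and 6.88 in Raptor-deficient cells, an interaction of 2.29 ± 0.22 (SE, adjusted p = 1.73e-05). All values but those of Raptor-deficient 8 h samples lay below the median of all values. Xcl1, the lymphotactin gene, rose from 4.43, 4.90, 4.89 and 4.83 to 9.26, 9.23, 9.21 and 9.04 in WT and from 5.31, 4.31, 5.49 and 4.54 to 10.79, 11.04, 11.03 and 10.74 in Raptor-deficient cells. Its 8 h groups were 3.29-fold apart with no overlap (interaction 1.57 ± 0.27 SE, adjusted p = 0.00391). Ramp3, a receptor-modifying protein gene, went from 5.45 to 5.99 in WT and from 5.85 to 7.79 in Raptor-deficient cells, with no overlap between genotypes at either time though the unstimulated difference of 0.41 was not called (interaction 1.39, adjusted p = 0.000203).

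Of the 96 higher genes, 79 had a WT response below 0, and in 47 of them the Raptor-deficient response was below 0 as well. Frat2, a gene of an inhibitor of the kinase GSK-3, went from 10.14 to 8.57 in WT and from 10.17 to 9.82 in Raptor-deficient cells (interaction 1.22, adjusted p = 0.00325). Klhl24, a Kelch family gene, read 9.50, 9.16, 8.81 and 8.84 in WT at 8 h and 10.29, 10.28, 9.92 and 10.28 in Raptor-deficient cells, from means of 10.94 and 11.04 (interaction 1.02, adjusted p = 0.0052; its 3 probe sets gave 0.96 to 1.29). Naive and quiescence genes had 4 higher and 1 lower interaction among 29 (0.86% and 2.35% of all genes), and a median of 0.30. The antiproliferative genes Btg1 (0.64, adjusted p = 0.00568) and Btg2 (0.82, adjusted p = 0.005), the chromatin organizer gene Satb1 (0.75, adjusted p = 0.0176) and the thioredoxin inhibitor gene Txnip (0.78, adjusted p = 0.0486) were higher. Slfn2, a Schlafen family gene linked to T cell quiescence, was lower (-0.51, adjusted p = 0.0299). Satb1 read 10.20, 10.22, 9.96 and 9.76 in WT at 8 h and 11.28, 11.19, 11.13 and 10.94 in Raptor-deficient cells, the latter hardly changed from their unstimulated mean of 11.24. The count of 4 was 11 without WT 8 h replicate 1 and 7 without unstimulated Raptor-deficient replicate 3. The quiescence factor gene Klf2 had an interaction of 0.49 (adjusted p = 0.297).

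Rasgrp1, which couples the T cell receptor to Ras, went from 9.92 to 8.94 in WT and from 9.61 to 9.51 in Raptor-deficient cells (interaction 0.87, adjusted p = 0.005). Cdyl2, a chromodomain gene, crossed over, from 7.68 to 7.10 in WT and from 7.35 to 7.92 in Raptor-deficient cells (interaction 1.13, adjusted p = 0.00142). Mideas, a gene of a histone deacetylase complex, fell from 7.94 to 7.59 in WT and rose from 7.96 to 8.65 in Raptor-deficient cells (interaction 1.05, adjusted p = 0.00111), and its 4 probe sets gave 0.72 to 1.05. Lfng, which encodes a Notch-modifying glycosyltransferase, had 1.05 (adjusted p = 0.0103). Scml4, another of the 10 largest (1.11), lost its call in 9 of the 16 fits that left out 1 array, whereas those named before it in this paragraph kept theirs.

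In 31 genes the genotype difference was called in unstimulated cells and not at 8 h. In 3 of them, Pitrm1, Malt1 and Lonrf1, the uncalled 8 h difference was still more than 0.5 times the size of the unstimulated one and of opposite sign. The 18 higher interactions had a median genotype difference of -0.62 before stimulation and 0.083 at 8 h, and the 13 lower ones 0.57 and -0.17, values that chose the class. Klrd1, the gene of the NK cell receptor CD94, read 7.31, 7.25, 6.79 and 7.24 in unstimulated WT and 5.49, 5.67, 5.41 and 5.41 in unstimulated Raptor-deficient cells. At 8 h it read 4.98, 4.51, 4.31 and 5.04 in WT and 4.47, 4.52, 3.86 and 4.78 in Raptor-deficient cells. The resting groups were 3.14-fold apart with no overlap and the 8 h groups overlapped near background, which gave an interaction of 1.34 ± 0.26 (SE, adjusted p = 0.00654). The summed intensity of the 11 NK and cytotoxic markers, Klrd1 included, was 705.7 to 750.1 in unstimulated WT and 601.0 to 629.5 in unstimulated Raptor-deficient samples, and the part of other cells in the Klrd1 values was not tested. Of these markers 2 of 11 reached a group mean of 5.515.

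Pde2a, a cyclic nucleotide phosphodiesterase gene, read 8.04, 7.73, 7.81 and 7.80 in unstimulated WT and 6.44, 7.14, 6.28 and 6.78 in unstimulated Raptor-deficient cells. At 8 h both genotypes lay between 5.44 and 6.01, so the fall was 4.23-fold in WT and 2.04-fold in Raptor-deficient cells (interaction 1.05, adjusted p = 0.0145). Slc25a40, a mitochondrial carrier gene, started at 7.08 to 7.23 in WT and 6.48 to 6.73 in Raptor-deficient cells and ended at 5.42 to 5.70 and 5.70 to 5.87 (interaction 0.75, adjusted p = 0.00323). Prss53, a serine protease gene, had an interaction of 0.86 (adjusted p = 0.00623). Its second, dimmer probe set gave an interaction of -0.047 and an unstimulated difference of -0.053, neither called. Smad3, which carries TGF-beta signals, had an interaction of 0.75 with means of 8.54 and 7.92 before stimulation. Malt1, the paracaspase gene of the pathway from the T cell receptor to NF-kappaB, rose 2.93-fold in WT and 5.45-fold in Raptor-deficient cells (interaction 0.89, adjusted p = 0.0146). Its other probe sets gave 0.15 and -0.057, and the mean of its probe sets was not called (adjusted p = 0.191). The unstimulated Malt1 groups touched, since Raptor-deficient replicate 4 at 7.62 lay above WT replicate 1 at 7.57.

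The lower resting interactions were genes already higher in Raptor-deficient cells before stimulation. Pitrm1, a mitochondrial protease gene, read 4.96, 4.71, 5.17 and 5.05 in unstimulated WT and 5.64, 6.04, 5.16 and 5.99 in unstimulated Raptor-deficient cells, and at 8 h 7.14, 7.55, 7.59 and 7.49 against 7.02, 6.91, 6.76 and 7.08. Its 8 h difference of -0.50 narrowly missed the threshold, with no overlap between the groups, so its place in this class is not firm (interaction -1.23, adjusted p = 0.00553). Sh2d2a, the gene of the T cell adaptor TSAd, lay between 8.73 and 8.86 in unstimulated WT and between 8.91 and 9.88 in Raptor-deficient cells, and at 8 h near 9.88 and 9.66 (interaction -0.88, adjusted p = 0.0164). Lonrf1, a ring finger gene, had -0.80 (adjusted p = 0.005). The retromer gene Vps35 (-0.94) and the phospholipid synthesis gene Selenoi (-0.94) lost their calls in 7 and 6 of the 16 fits without 1 array. Slamf1, a co-receptor gene, had -0.74 in its brightest probe set (adjusted p = 0.0108) and 0.086 and 0.044 in the others.

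This class was the less stable one. The number of resting genes was 11, 19 and 17 when WT unstimulated replicate 1, 2 or 3 was dropped, and 18 and 16 when WT 8 h replicate 2 or 3 was. It was 19, 15 and 18 when Raptor-deficient 8 h replicate 1, 2 or 4 was dropped, 20 for Raptor-deficient unstimulated replicate 2 and 96 for replicate 3 of that group. In all 16 such fits 9 of the 31 genes stayed in the class, against 216 of the 444 that differed after stimulation. Klrd1, Pde2a, Prss53, Slc25a40 and Slamf1 were among the 9. Without replicate 1 of all 4 groups, tried after the data were seen, 11 genes fell in the class, 5 of them from the 31, and Pde2a, Sh2d2a and Vps35 lost their calls.

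**Figure D4:**
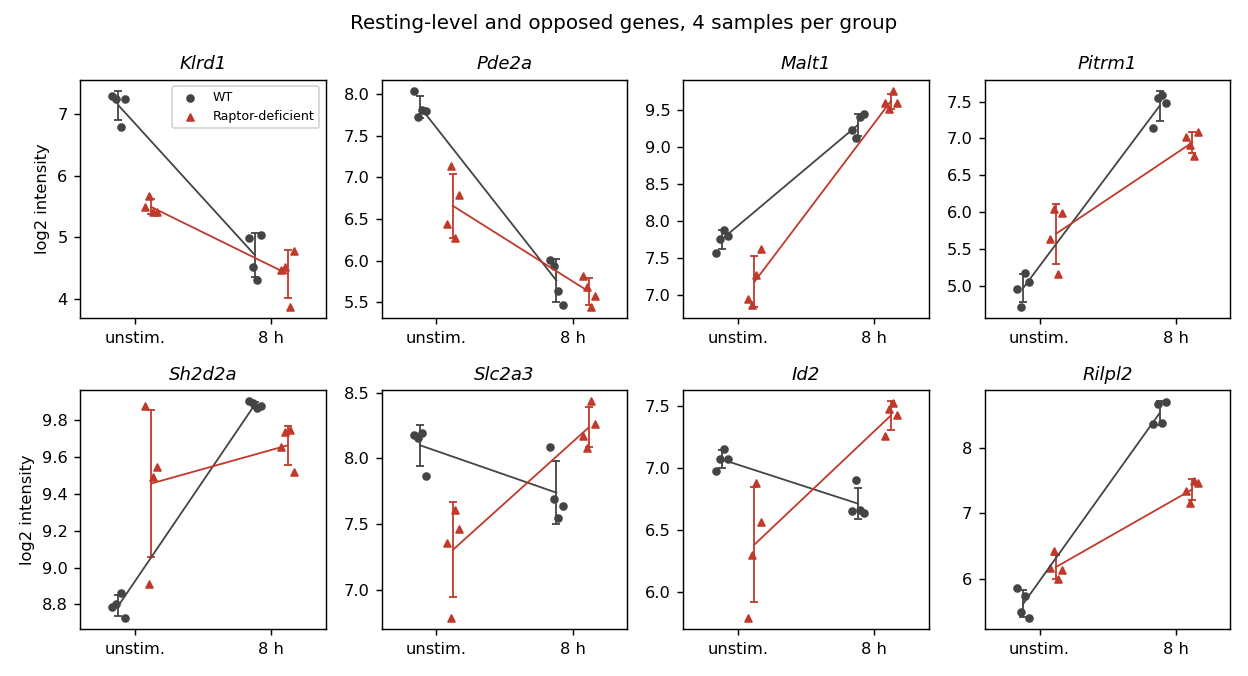
Log2 intensity of 5 genes of the resting class (Klrd1, Pde2a, Malt1, Pitrm1, Sh2d2a) and 3 opposed genes (Slc2a3, Id2, Rilpl2) in unstimulated and 8 h cells; each point is 1 sample (4 per group), lines join group means and bars are SDs. The means of the resting genes lie farther apart in unstimulated cells than at 8 h, and the lines of the opposed genes cross.

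In 4 genes the genotype difference turned over between the times. Slc2a3, the gene of the glucose transporter GLUT3, read 8.18, 8.15, 8.20 and 7.87 in unstimulated WT and 7.35, 6.79, 7.61 and 7.46 in unstimulated Raptor-deficient cells. At 8 h it read 8.09, 7.69, 7.54 and 7.64 in WT and 8.17, 8.08, 8.43 and 8.26 in Raptor-deficient cells. The resting groups did not overlap and the 8 h groups overlapped through WT replicate 1, with an interaction of 1.29 ± 0.22 (SE, adjusted p = 0.00293). Of its 4 probe sets 3 gave 0.97 to 1.29 and 1 gave 0.12. The 8 h difference was called in the brightest only, the others giving 0.33, 0.32 and 0.11. In a limma fit of all 28898 probe sets even the brightest narrowly missed at 8 h (adjusted p = 0.0501). The place of Slc2a3 among the opposed genes is therefore not firm. Id2, the gene of an inhibitor of E proteins, read 6.98, 7.07, 7.15 and 7.07 in unstimulated WT against 5.79, 6.29, 6.88 and 6.56, and 6.65, 6.90, 6.66 and 6.63 at 8 h against 7.26, 7.48, 7.52 and 7.43. It fell 1.28-fold in WT and rose 2.06-fold in Raptor-deficient cells (interaction 1.40 ± 0.22 SE, adjusted p = 0.00187). The other 2 probe sets of Id2 gave interactions of 0.92 and 0.75, the second not called. Their unstimulated differences of -0.14 and -0.15 were not called, while those of 0.78 and 0.60 at 8 h were. Only the brightest Id2 probe set was therefore opposed.

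Rilpl2, a gene of a Rab effector, rose 7.51-fold in WT, from between 5.40 and 5.85 to between 8.36 and 8.70. In Raptor-deficient cells it rose 2.27-fold, from between 6.00 and 6.43 to between 7.15 and 7.50, with no overlap of the genotypes at either time (interaction -1.72 ± 0.18 SE, adjusted p = 3.22e-05). Mad2l2, a gene of DNA repair and mitotic control, went from 7.82 to 9.83 in WT and from 8.22 to 9.40 in Raptor-deficient cells (interaction -0.83, adjusted p = 0.00109). All 4 kept a called interaction in the 16 fits without 1 array, but none stayed opposed in all of them. When a difference was counted at an unadjusted p under 0.05 in place of the adjusted one, 134 of the 548 genes had opposite called signs.

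Cd69, the early activation marker gene, and Zbtb10, a zinc finger gene, differed with the same sign at both times. Cd69 read 6.80, 6.82, 6.25 and 6.66 in unstimulated WT and 8.23, 7.87, 7.65 and 7.65 in unstimulated Raptor-deficient cells, and 10.48, 10.43, 10.48 and 10.33 against 10.80, 10.90, 11.03 and 10.86 at 8 h. Raptor-deficient cells were higher with no overlap at both times, and the gap narrowed from 1.22 to 0.47 (interaction -0.75 ± 0.19 SE, adjusted p = 0.0315, lost in 7 of the 16 fits without 1 array). Both calls were lost without replicate 1 of all 4 groups. For Zbtb10 the gap widened from 0.41 to 1.07 (interaction 0.66, adjusted p = 0.00986).

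A genotype difference could also pass through stimulation without a called interaction. Of the 163 genes that differed in unstimulated cells, 61 also differed at 8 h with the same sign, 59 of them with no called interaction, 4 with the opposite sign, and 98 were not called at 8 h. Rragd, the gene of a Rag GTPase that recruits mTORC1 to the lysosome, read 5.77, 6.10, 5.74 and 5.49 against 6.93, 7.19, 7.19 and 7.25 before stimulation, WT first, and 5.75, 5.53, 5.75 and 5.66 against 7.55, 6.83, 7.15 and 6.93 at 8 h. The difference was 1.36 and 1.44, both with no overlap (interaction 0.08 ± 0.20 SE, adjusted p = 0.891). Fosl2, an AP-1 gene, differed by 1.51 and 1.37, and the transcription factor genes Myb by 1.36 and 0.92, Egr1 by 0.83 and 0.56 and Nr4a1 by 0.59 and 0.68, in each case higher in Raptor-deficient cells. Conversely, of the 1691 genes that differed at 8 h, 1241 had no called interaction and 1626 were not called before stimulation.

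For the 67 genes with neither difference called, opposite small shifts at the 2 times added up. Pfkp, the platelet-type phosphofructokinase gene, had the lowest interaction of them, -1.51 ± 0.41 (SE, adjusted p = 0.0486). Its unstimulated Raptor-deficient values were 9.58, 7.77, 7.52 and 7.71, against 7.42 to 7.65 in WT, so replicate 1 alone sets the resting difference. At 8 h WT read 8.70 to 8.72 and Raptor-deficient cells 7.59 to 8.05, with no overlap. Its call was lost in 12 of the 16 fits, as was that of the proteasome gene Psma1 (-1.19). Psma1 also read highest in that array, 8.71 against 7.13 to 7.75 in the other unstimulated Raptor-deficient samples. The lysosomal genes Gaa (-1.01) and Lamp2 (-0.78) kept their calls in all 16. With the proton pump gene Atp6v1a (-0.73) they were the 3 of 36 lysosome and autophagy genes called, all lower, against 2.35% lower among all genes. This count was 6 and 7 without unstimulated Raptor-deficient replicates 1 and 3. Of 34 components of the PI3K, Akt and mTOR pathway 0 were called by limma, against 3.21% of all genes, and 6 (17.6%) passed an unadjusted p under 0.05, against 16.9% of all genes, with Mtor at -0.10 (adjusted p = 0.737) and Rictor, the scaffold gene of mTORC2, at 0.17 (adjusted p = 0.726).

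The 24 h arrays, none of which entered the interaction test, gave the genotype difference of each class at a later time. At 24 h 4670 genes (27.3%) were called, 1913 higher (11.2%) and 2757 lower (16.1%). Of the 444 genes that differed after stimulation, 369 (83.1%) were called at 24 h, 362 with the sign of their 8 h difference and 7 with the other. Of the 31 resting genes 12 (38.7%) were called, 7 with the sign of their unstimulated difference and 5 with the other, and the median 24 h difference of the class was 0.049. Genes with no called interaction were called at 24 h in 25.7% of cases. They were not chosen for a difference at 8 h, whereas the 444 genes were, so these shares do not compare like with like. The 24 h cells may come from the same animals as the earlier ones, which the labels do not say.

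Individual genes followed different courses. Xcl1 read 7.34, 7.35, 7.44 and 7.08 in WT and 10.76, 11.05, 10.91 and 10.76 in Raptor-deficient cells at 24 h, a gap of 3.56 (adjusted p = 4.01e-10) after 1.72 at 8 h. Ccr8 kept a gap of 2.29 (adjusted p = 8.85e-08), with WT at 5.06 to 5.28 and Raptor-deficient cells at 7.19 to 7.76. Fasl was still lower by 1.29 on the log2 scale, with WT at 6.17 to 6.32 and Raptor-deficient cells at 4.53 to 5.26. Among the sterol genes the 24 h differences were -0.48 for Cyp51, -0.43 for Sqle, -0.67 for Idi1 and -0.034 for Msmo1 (adjusted p = 0.864), beside 8 h values of -1.92, -1.65, -1.83 and -1.81. Whether the 8 h and 24 h differences of a gene themselves differ was not tested. Xbp1 was among the 7 with the other sign, at 8.51 to 8.80 in WT and 8.87 to 9.15 in Raptor-deficient cells (0.33, adjusted p = 0.0144). The cyclin gene Ccnd3, higher at 8 h (0.67), was lower at 24 h (-0.86, adjusted p = 5.34e-06). Of the resting genes, Klrd1 was no longer called (0.32, adjusted p = 0.223), while Malt1 read 8.02 to 8.45 in WT and 8.96 to 9.36 in Raptor-deficient cells (0.96, adjusted p = 4.54e-05), the opposite of its unstimulated direction. Of the opposed genes, Rilpl2 and Mad2l2 stayed lower (-0.71 and -0.37), and Slc2a3 and Id2 were not called (adjusted p = 0.523 and 0.066).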

How the data were processed

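RNA of sorted naive CD4 T cells was measured on 24 arrays, 16 of which enter the interaction. The authors deposited log2 intensities, made with RMA and Partek 6.5 per the submitters' processing notes. Values ran from 1.763 to 13.57 over the genes used. Of 45141 probe sets, 28898 named 1 gene, 551 several and 15692 were not listed in the platform annotation, and 28689 Entrez numbers were found in the RefSeq table of GRCm38.p6. Each of 17097 genes was represented by its brightest probe set (mean of 24 samples), and 7180 genes had over 1. No level filter was applied. The number of arrays limits the precision, and group means below 5.515, the median of all values, were taken as near background by convention.

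The test was limma 3.58.1 (R 4.3.3). A model with 4 group means was fitted to the 16 arrays (residual degrees of freedom 12), with eBayes and Benjamini-Hochberg adjustment over all genes, two-sided. A separate fit on the 8 arrays of 24 h cells left 6 for the residual. Classes combine the calls of the unstimulated and the 8 h difference at the same threshold. Named genes are the 10 largest interactions of each sign that differed after stimulation, 8 of each sign of the resting class, the opposed genes, 3 of each sign of the small classes, up to 3 per pathway list by p, and a set list of regulators; they needed a group mean at or above 5.515. Further list members, Smad3, and the genes at the class edges were named after their values were seen. The genes described, the 26 pathway lists and 11 cell lists were chosen with earlier results of these data known. Of 925 list genes, 830 were measured. Lists are described by counts and medians, with no set test. Promoter motifs were searched on both strands with Python 3.11.15. The fit was tested on simulated data. Alternatives were the mean of probe sets, all 24 samples in the fit, a filter on dim genes, median centring, cyclic loess, array weights, an intensity trend with robust prior, a replicate block, a stricter threshold, other class rules, and the removal of arrays.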

Additional observations from a re-analysis of the deposited data

Results flagged for a closer look

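The response itself differed between genotypes by the interaction test in 548 genes. Opposed effects, in which the genotype difference was called with one sign before and with the other sign after stimulation, were found for Id2 (interaction 1.40), Slc2a3 (1.29), Rilpl2 (-1.72) and Mad2l2 (-0.83). For Id2 the unstimulated difference was called in its brightest probe set only. For Slc2a3 the 8 h difference was called in its brightest probe set only, and it narrowly missed in a limma fit of all 28898 probe sets (adjusted p = 0.0501).

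For the 112 genes picked by the naming rule, 448 groups of 4 samples were examined for a sample far from the others by Dixon's criterion at 95%, and 26 (5.80%) passed, where chance flags about 1 in 20 groups. WT 8 h replicate 1 gave 8 of the 26. It was low for Acot7 (8.66), Ebna1bp2 (9.88), Fosl1 (7.50), Psmd12 (9.0), Ptger2 (6.32) and Rgs1 (8.34), and high for Mideas (7.79) and Ikbkg (6.61). Unstimulated Raptor-deficient replicate 1 gave 4, with Acot7 (4.46) and Acsl3 (5.59) low and Gata3 (6.80) and Pfkp (9.58) high. Replicate 2 of that group stood apart for Higd1a (8.42) and Mrpl18 (8.15). In unstimulated WT cells the samples were replicate 1 for Xcl1 (4.43), replicate 3 for Klrd1 (6.79), and replicate 4 for Creld2 (6.70) and Slc2a3 (7.87). At 8 h they were WT replicate 2 for Id2 (6.90) and WT replicate 4 for Atp5g3 (10.91) and Tbx21 (4.57). Raptor-deficient 8 h samples were replicate 1 for Lonrf1 (8.07) and Xbp1 (8.06), replicate 3 for Klhl24 (9.92), and replicate 4 for Hif1a (8.94) and Suclg1 (6.88). For Xbp1, Hif1a, Id2 and Klrd1 the genotypes stayed apart, without overlap, at the time concerned.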

How the results depend on the processing

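Of 548 genes with a called interaction, 546 stayed called with all 24 samples in the fit, 546 under array weights, 533 when limma's prior was robust and followed intensity, 523 with the dim filter, 515 with median centring, 492 with cyclic loess and 428 with the mean of all probe sets, and no sign of a called gene changed in any alternative. The total rose to 1076 with all 24 samples (331 higher, 745 lower) and 1096 with array weights (298 and 798). Median centring gave 114 higher and 572 lower, a smaller share of higher calls, and the dim filter 222 higher. With array weights 2963 genes differed at 8 h and 132 unstimulated, beside 1691 and 163 in the main fit. Of the 31 resting genes 22 kept their class under these weights. With all 24 samples 332 genes differed unstimulated. With all 24 samples the class counts were 814 after stimulation, 75 resting, 14 opposed, 8 with the same sign and 165 with neither difference called, and with array weights 934 after stimulation, 10 opposed and 114 with neither. At an adjusted p under 0.01 there were 155 calls (38 higher, 117 lower), with 142 after stimulation, 6 resting, 0 opposed, 0 of the same sign and 7 with neither, and 65 and 897 genes differed unstimulated and at 8 h. Class rules changed the opposed genes most, to 134 by unadjusted p (18 of the same sign, 0 with neither) and to 131 by size (0 of the same sign). The 2 genes of the same sign became 4 with the dim filter, 5 with the mean of probe sets and 1 with median centring or the trend and robust prior. Without unstimulated Raptor-deficient replicates 2 and 3 there were 991 calls (276 and 715, 177 of at least 2-fold), with 668 after stimulation, 74 resting, 12 opposed and 234 with neither. Without replicate 1 of all 4 groups, tried after the data were seen, 11 were resting, 1 opposed and 0 of the same sign, and 72 genes differed unstimulated.

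Leaving out 1 array gave 291 to 1046 calls (70 to 321 higher, 221 to 725 lower, 51 to 136 of at least 2-fold). The classes then held 248 to 693 genes after stimulation, 11 to 96 resting, 0 to 25 opposed, 0 to 4 of the same sign and 25 to 228 with neither, and 88 to 299 genes differed unstimulated. Without replicate 1 of both 24 h groups, 4 genes after stimulation had the other sign at 24 h.

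Some uncalled interactions turned sign, most of them near 0, while that of Slc15a2 (-0.61 ± 1.57 SE) had a very large scatter. With the mean of probe sets Fosl2 gave 0.11, Mtor 0.15 and Slc15a2 0.00031. Tfeb gave -0.012 with median centring and -0.018 with array weights. Without unstimulated Raptor-deficient replicates 2 and 3, Il2ra gave 0.14 and Myc 0.0023, and Rragd gave -0.11 without replicate 1 of all groups. Over the fits without 1 array Slc15a2 ran from -1.49 to 0.28, Tfeb from -0.12 to 0.14 and Rragd from -0.064 to 0.18.

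Same-numbered samples of the 4 groups correlated in their deviations by -0.074 to 0.2355, with 3 of 24 pairs over 0.1 and 11 of 24 closest to their own number. By chance 1 in 4 would be closest to its own number. The main fit did not take the numbers as pairs, but these values do not exclude that same-numbered samples share a source. Between the 2 groups of 24 h the range was 0.064 to 0.251, and 4 of 4 were closest to their own number. Slc15a2 read 3.22 and 3.41 in unstimulated WT replicates 1 and 3 but 8.40 and 8.52 in replicates 2 and 4, and was split the same way in WT at 8 h (3.44 and 3.46 against 7.51 and 7.49) and 24 h (3.68 and 3.61 against 5.67 and 6.10). A replicate block gave 548 calls (151 higher, 397 lower), 489 of them the same genes, with 38 resting and 4 of the same sign. Blocks of replicate number within genotype, added after the data were seen, gave 400, of which 367 were among the 548. Levels near background limit the folds and resting differences of many genes, among them Fasl, Sqle, Ccr8, Lss, Il2, Xcl1, Pitrm1, Pdcd1, Il2ra and Msmo1. Several probe sets existed for 294 of the called genes; in 90 another one was called too, always in the same direction. With the mean of probe sets the named genes Malt1, Slamf1, Selenoi, Vps35, Mrpl1 and Sucla2 lost their calls, as Suclg1 and Sdhb did without replicate 1 of all 4 groups.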
